A study of Mus musculus with 2 samples.

Results

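Potassium channel genes were examined in cultured embryonic mouse ureters treated with NOGGIN or left untreated. The members were all genes whose name on the array consists of Kcn, further letters and a closing number. The array carries 140 probes for 92 such genes. A probe was kept where, on each array, most of its spots rose well above background in the red or the green channel. This held for 101 probes of 75 genes, and each gene is given by its brightest kept probe. Of these, 60 genes were above background in all 4 channels, and 10 only in the green channel of each array. The 17 genes not kept were Kcna10, Kcnab2, Kcne1, Kcne2, Kcng1, Kcng3, Kcng4, Kcnh6, Kcnj1, Kcnj3, Kcnj5, Kcnj9, Kcnj11, Kcnk18, Kcnmb3, Kcnn1 and Kcns2, and no level or ratio is given for them.

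Potassium channels let potassium leave or enter a cell along its gradient, which sets the resting membrane potential and ends action potentials. Voltage-gated, inward rectifier, calcium-activated and two-pore channels are built from different families of pore-forming subunits, and auxiliary subunits change their gating and surface number. In the smooth muscle of the ureter wall, where peristaltic waves are driven by action potentials, these channels limit excitability, while in the urothelium they take part in salt and water transport.

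Per the labels, both groups were ureters of wild-type NMRI embryos of mixed sex, dissected at E13.75 (embryonic day) and kept on transwell membranes for 18 h. NOGGIN, a secreted antagonist that binds bone morphogenetic proteins (BMPs), was present at 10 µg/ml in the medium of one group and absent from the other. From each of the 4 RNA samples 200 ng of total RNA was labelled, and 2 two-colour arrays each paired a control with a NOGGIN sample, with the dyes exchanged between arrays. The sources used here do not say how many ureters or litters went into a sample, so p-values measure only the spread between these samples, which may be technical.

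Labels and deposited values disagree on which way the comparison runs. Id1, a direct target of BMP signalling, had normalised log2 intensities of 14.68 and 14.59 in the channels labelled NOGGIN and 12.47 and 12.52 in those labelled control. It was therefore higher in the channel labelled NOGGIN, and 9 of 11 BMP target genes were at least 1.5-fold higher there on both arrays. An antagonist of BMPs would lower such targets, so the labelled direction is the reverse of its known action. The authors' deposited table gives Id1 signed fold changes of -4.65 and -4.53, that is, in the opposite direction if its title is read as NOGGIN over control. All log2 ratios here are taken by the dye labels, NOGGIN over control, and exchanged labels would reverse each sign without altering a size. Whether the labels were exchanged was not tested. Throughout, the words higher, lower, with NOGGIN and in control follow the labels.

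Most potassium channel genes differed little between the channels, and a few voltage-gated subunits stood out on the low side. By a fold rule, which asks for 1.5-fold or more the same way on each array, 4 of the 75 genes were lower (Kcnd3, Kcnc1, Kcnh7 and Kcna1) and 2 were higher (Kcne3 and Kcnv2). Over all 22316 genes measured, unnamed features included, 1.25% were lower and 0.941% were higher by the same rule, against 5.33% and 2.67% of the potassium channel genes. One member, Kcnab1, was past 1.5-fold on each array but with opposite signs (1.33% of members), as did 0.237% of all genes. No member and no other gene (0% of 22316) reached an adjusted p of 0.05 by limma. At an unadjusted p under 0.05 stood 14 members, 5 higher and 9 lower (18.7%), against 6.04% of all genes.

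The middle of the family lay near 0. The median log2 ratio of the 75 genes was -0.003, with 0.045 on array 1 and -0.065 on array 2, and the median over all genes was -0.006. The members were spread more widely than genes at large: the median absolute log2 ratio was 0.183 for the members and 0.102 for all genes. On both arrays 21 members lay above 0 and 25 lay below 0, and for 29 (38.7%) the arrays differed in sign. Of all genes 20.4% lay above 0 on both, 23.3% lay below 0 on both and 56.3% differed in sign. Across genes, which are not independent replicates and share the same 2 arrays, Pearson's r between arrays 1 and 2 was 0.411 over the members and 0.179 over all genes. Because the RNA comes from whole ureters, fewer cells of a type and less RNA per cell cannot be told apart. Smooth muscle markers differed in the same samples, where the fold rule placed 4 of 12 on the low side and 1 on the high side, and their part in the potassium channel values was not tested.

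**Figure D1:**
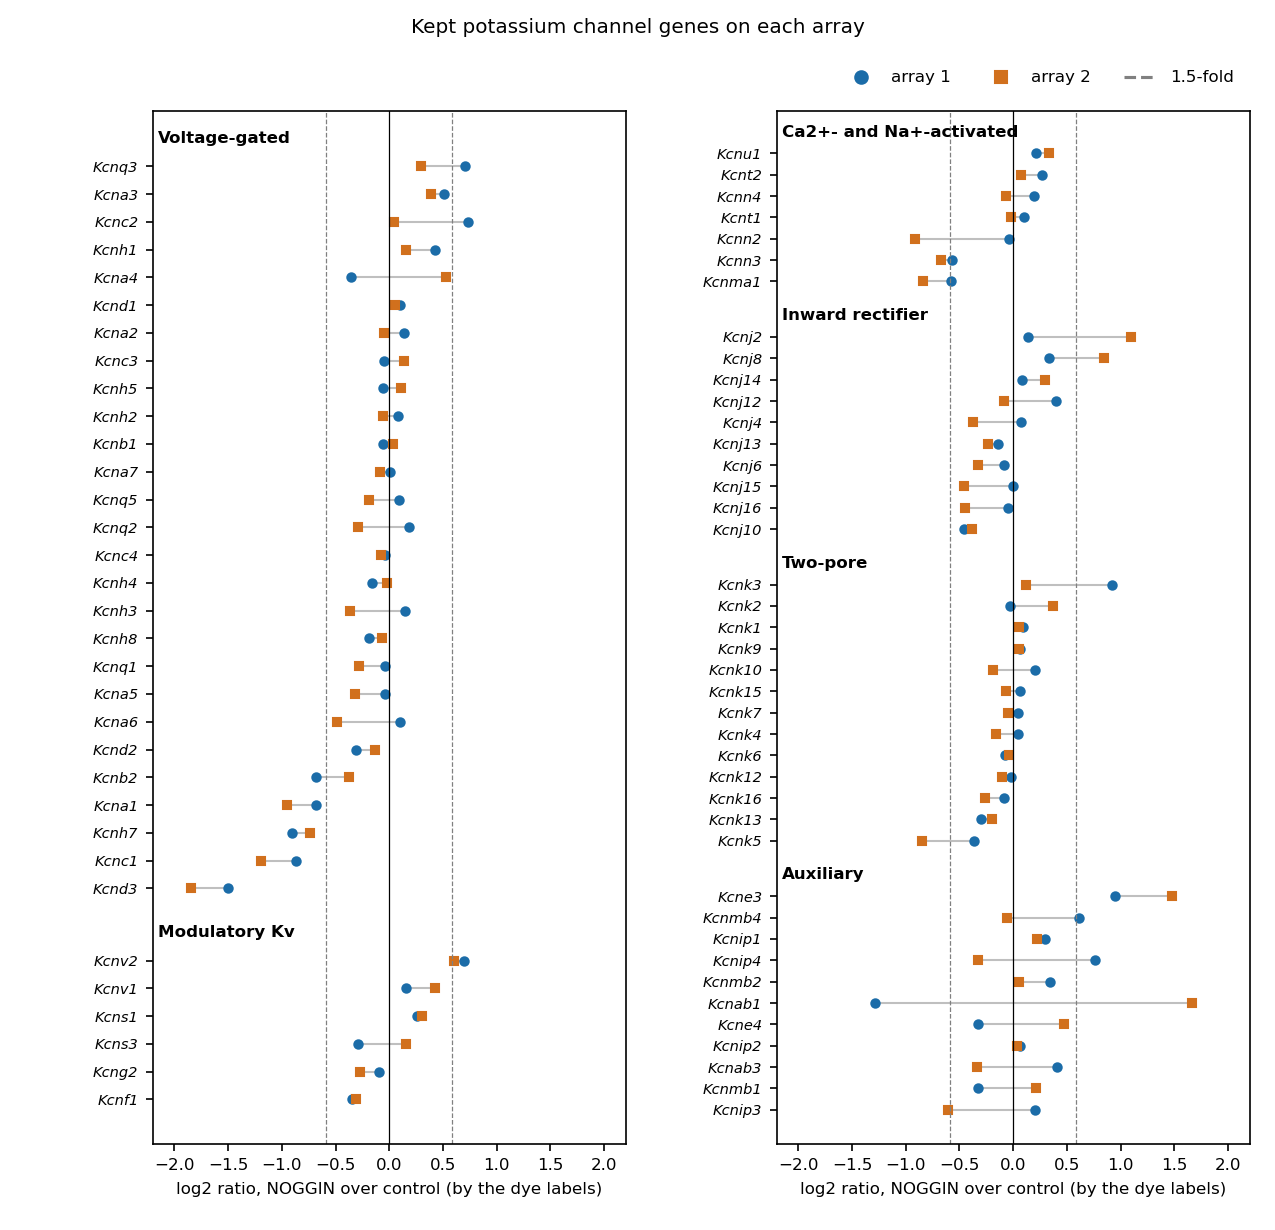
Log2 ratio of NOGGIN over control by the dye labels (horizontal axis) for 74 of the 75 kept potassium channel genes, grouped by subfamily, with array 1 as circles and array 2 as squares. The 4 voltage-gated genes at the bottom of their block lie beyond the dashed 1.5-fold line on the low side on both arrays, Kcne3 and Kcnv2 lie beyond it on the high side, and Kcnab1 has its arrays at -1.28 and 1.66.

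Among the 28 measured of 30 voltage-gated alpha subunits, which form the pores that open on depolarisation, 4 were lower, 0 were higher and 24 were neither, with a median log2 ratio of -0.05. Kcnd3 had the largest difference of any member. It encodes a pore subunit of the A-type current, a rapidly inactivating potassium current that delays firing. Its log2 intensity was 11.74 and 11.32 in the channels labelled NOGGIN and 13.24 and 13.17 in those labelled control. Both NOGGIN values lay well below both control values. With 2 values in each group, a lack of overlap, here and below, carries little weight. Kcnk1, with a mean log2 ratio of 0.07, did not overlap either, and the share over all genes was not counted. The mean log2 ratio was -1.67 ± 0.24 (SD, n = 2), with a 95% interval from limma of -2.11 to -1.23 and a limma adjusted p of 0.0995. The probe lies on the plus strand of chromosome 3, 105476854 to 105476913 in mouse build mm9, and its exon or UTR position was not analysed here. A second Kcnd3 probe, on the same chromosome at 105471938 to 105471997, was not above background in any channel, so the difference rests on 1 probe.

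Other genes of the same channel complex had values closer to 0. The close relative Kcnd2 had log2 intensities of 12.22 and 12.20 with NOGGIN and 12.53 and 12.33 in control, which did not overlap, and a mean log2 ratio of -0.22 ± 0.13 (SD, n = 2; limma adjusted p = 1). Kcnd1, the third gene of the group, had a mean of 0.07, with a second probe at -0.14. The cytosolic partners Kcnip1, Kcnip2, Kcnip3 and Kcnip4, calcium sensors that bind these pores, ranged from -0.20 to 0.26 by their brightest probes. For Kcnip3 and Kcnip4 the arrays differed in sign, but a second Kcnip4 probe was above 0 on both, at 0.74 and 0.21. The transmembrane partners Dpp6 and Dpp10 had 0.01 and 0.05. A transcript annotated antisense to Kcnd3, Kcnd3os, had -0.43 and -0.79 on the arrays and was above background in 3 of the 4 channels.

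Kcnc1 encodes a pore subunit of fast delayed rectifier currents known from rapidly firing neurons. Its log2 intensity was 8.40 and 8.30 with NOGGIN and 9.27 and 9.49 in control, without overlap. The mean log2 ratio was -1.03 ± 0.22 (SD, n = 2; 95% interval -1.47 to -0.60; limma adjusted p = 0.178). The other 2 of its 3 probes were not kept, since they were above background in 1 channel and in none, so Kcnc1 also rests on 1 probe.

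Kcnh7, an ether-a-go-go related subunit, had log2 intensities of 7.40 and 7.45 with NOGGIN and 8.31 and 8.19 in control. The groups did not overlap, and the mean log2 ratio was -0.82 ± 0.12 (SD, n = 2; limma adjusted p = 0.234). Its second kept probe gave -0.41 on average and missed the fold rule, and with the mean over both probes Kcnh7 stood at -0.62 and was no longer among the lower genes. Kcna1, a subunit of low-threshold currents that restrain repetitive firing, had 7.92 and 7.90 with NOGGIN and 8.60 and 8.85 in control. Its mean log2 ratio was -0.82 ± 0.19 (SD, n = 2; limma adjusted p = 0.264), again without overlap. With median centring in place of loess Kcna1 was no longer past 1.5-fold on both arrays.

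The other voltage-gated genes had mean log2 ratios from -0.53 for Kcnb2 to 0.50 for Kcnq3. Kcnb2, a slow delayed rectifier subunit, was below 0 on both arrays at -0.68 and -0.38. Kcnq3, whose channels carry a slow current active near rest, had 0.70 and 0.29, and it was above background in the control channel on only 1 array. Kcna3, known from lymphocytes, had 0.51 and 0.39. Kcnq5, a Kv7 gene with a role in smooth muscle tone, had a mean of -0.05, and Kcna5, another subunit known from smooth muscle, had -0.18. Kcna4, which also forms a rapidly inactivating channel, differed in sign between arrays, at -0.36 and 0.53.

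**Figure D2:**
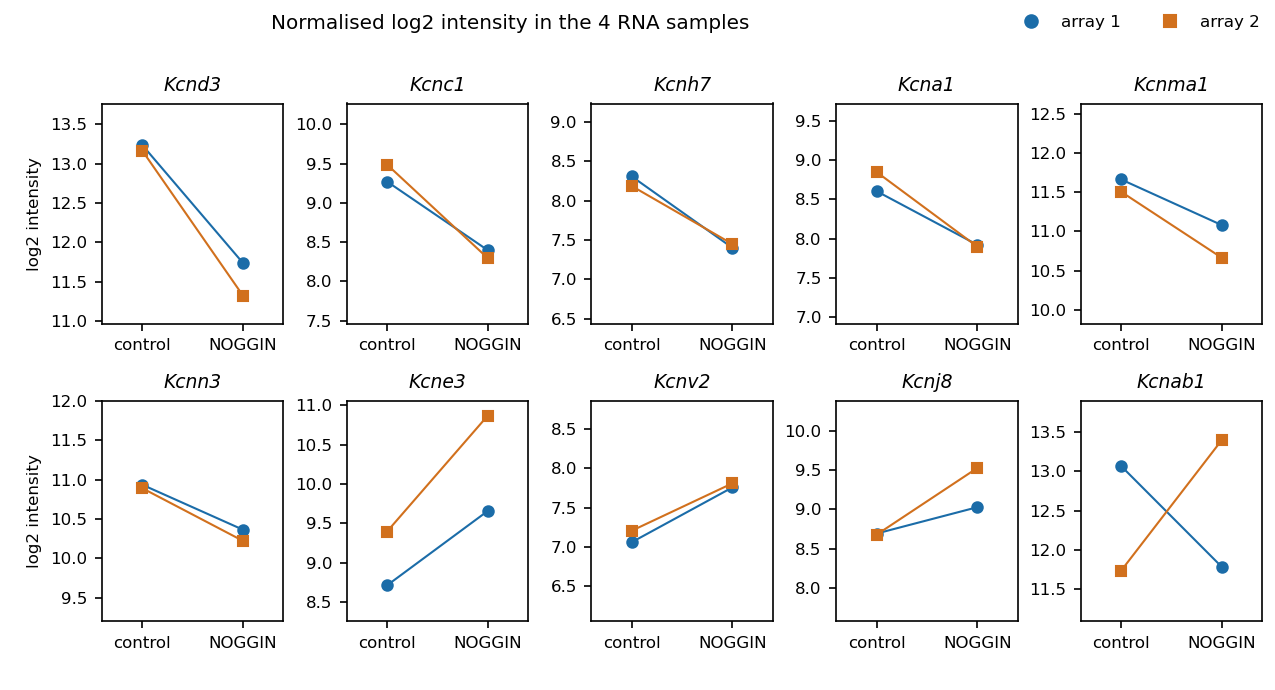
Normalised log2 intensity (vertical axis, each panel spanning the same range) in the control and NOGGIN channels of array 1 (circles) and array 2 (squares), joined within each array, for 10 potassium channel genes. In 9 panels both lines run the same way, and for Kcnab1 they cross, from 13.06 to 11.78 on array 1 and from 11.74 to 13.40 on array 2.

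Of 10 modulatory subunits, which form no channel alone but join other voltage-gated subunits, 6 were kept, 1 was higher and 0 were lower. Kcnv2, known from photoreceptors, had log2 intensities of 7.76 and 7.81 with NOGGIN and 7.06 and 7.21 in control. The groups did not overlap, but the gene was dim, and in control it was above background on 1 array only. The mean log2 ratio was 0.65 ± 0.07 (SD, n = 2; limma adjusted p = 0.369), and with the processed signals of the scanner software it was 1.19. Kcnv2 missed the fold rule with median centring and with the median of spots, and was not kept where both channels had to exceed background. Kcns1 had 0.28, Kcnv1 0.29, Kcng2 -0.18 and Kcnf1 -0.33 as mean log2 ratio. Kcns3 differed in sign between arrays, at -0.29 and 0.15.

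Auxiliary subunits held both the highest member and the one with opposite ratios. Of 15 such genes 11 were kept, 1 was higher, 0 were lower and 7 differed in sign between arrays. Kcne3 encodes a small transmembrane protein that keeps Kcnq1 channels open in epithelia. Its log2 intensity was 9.66 and 10.87 with NOGGIN and 8.71 and 9.40 in control. The groups did not overlap, though the lower NOGGIN value lay close to the higher control value, and both values of array 2 were above their counterparts on array 1. The mean log2 ratio was 1.21 ± 0.37 (SD, n = 2; 95% interval 0.72 to 1.70; limma adjusted p = 0.168). A second probe, at 107332867 to 107332926 on chromosome 7 (mm9) beside the first at 107333062 to 107333121, gave 1.18 ± 0.50. Its pore-forming partner Kcnq1 had -0.16.

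Kcnab1, a cytosolic beta subunit that speeds inactivation of voltage-gated channels, had log2 intensities of 11.78 with NOGGIN and 13.06 in control on array 1, and of 13.40 with NOGGIN and 11.74 in control on array 2. The red channel was thus the higher one on both arrays, by 1.28 and 1.66 on the log2 scale, and the mean log2 ratio of 0.19 ± 2.08 (SD, n = 2; limma adjusted p = 1) had no direction. Kcnab1 has 1 probe. Among the 29 members with opposite signs, red was higher on both arrays for 9 and green for 20, beside 4915 and 7638 of all 22316 genes. Kcnab3, of the same family, had 0.41 and -0.33, which is green higher on both.

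Calcium-activated channels, which open as calcium enters and so damp excitation, were below 0 on both arrays for 3 (Kcnma1, Kcnn2 and Kcnn3) of the 4 measured pore genes, without passing the fold rule. Over all genes 23.3% lay below 0 on both arrays, and Kcnn2 was close to 0 on array 1. Of 8 calcium- and sodium-activated genes 7 were kept, and 0 were higher or lower by the rule. On both arrays 3 of these 7 lay below 0 and 2 lay above 0, and their median log2 ratio was 0.04. Kcnma1, the pore of the large-conductance BK channel, had log2 intensities of 11.08 and 10.66 with NOGGIN and 11.66 and 11.50 in control, without overlap. The log2 ratios were -0.58 and -0.84, the first just short of 1.5-fold, with a mean of -0.71 ± 0.18 (SD, n = 2; limma adjusted p = 0.343). All 4 Kcnma1 probes, placed between 24111708 and 24130975 on the minus strand of chromosome 14 (mm9), lay below 0 on both arrays, with means from -1.04 to -0.63. One of them, at -1.04, was past 1.5-fold on both arrays.

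Of the measured accessory subunits of BK, only Lrrc55 passed the fold rule. Lrrc55, a leucine-rich repeat subunit that shifts BK opening to lower voltages, had log2 intensities of 7.98 and 8.46 where labelled NOGGIN and 10.05 and 9.74 in control. Its mean log2 ratio was -1.67 ± 0.56 (SD, n = 2; limma adjusted p = 0.125), lower on both arrays. Lrrc38, of the same family, had -0.09. The beta subunit of smooth muscle BK channels, Kcnmb1, had -0.33 and 0.21 on the arrays, and Kcnmb2 had 0.34 and 0.06. The neuronal Kcnmb4 had 0.61 and -0.06, while its second probe had -0.065 and 0.391. For Kcnmb1 and both Kcnmb4 probes the arrays thus differed in sign. The small-conductance channel gene Kcnn3 had log2 intensities of 10.37 and 10.22 with NOGGIN and 10.94 and 10.89 in control, without overlap, and a mean log2 ratio of -0.62 ± 0.07 (SD, n = 2; limma adjusted p = 0.4). A second Kcnn3 probe gave -0.68. Kcnn2 was at -0.04 and -0.92, and Kcnn4, the intermediate-conductance channel of non-excitable cells, was at 0.20 and -0.07.

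Inward rectifiers, which hold the resting potential near that of potassium, included no gene past the fold rule among 10 kept of 15, and had a median of -0.17. Kcnj8, the pore of the vascular and smooth muscle type of ATP-sensitive channel, had log2 intensities of 9.03 and 9.53 with NOGGIN and 8.69 and 8.68 in control, without overlap. Its mean log2 ratio was 0.59 ± 0.36 (SD, n = 2; 95% interval 0.10 to 1.08; limma adjusted p = 0.615). Abcc9, the sulfonylurea receptor that pairs with it, had 0.34 ± 0.12, and Abcc8, the receptor of pancreatic beta cells and neurons, had -0.29 ± 0.15. Kcnj2, a strong rectifier, had 0.14 and 1.10. Kcnj10 and Kcnj16, whose products form a joint channel in glia and renal epithelium, had means of -0.42 and -0.25.

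Two-pore channels, which carry background currents, had a median absolute log2 ratio of 0.06 for 13 kept of 14 genes, against 0.10 for all genes, and none past the fold rule. Only 8 of the 13 were above background in all 4 channels, and their log2 ratios ranged from -0.60 to 0.52. Kcnk5, an acid-sensitive channel of epithelia, had log2 intensities of 9.41 and 9.22 with NOGGIN and 9.77 and 10.06 in control, without overlap, and a mean log2 ratio of -0.60 ± 0.34 (SD, n = 2; limma adjusted p = 0.568). Kcnk3, another acid-sensitive channel, had 0.92 and 0.12. Kcnk1 had 0.09 and 0.05, with a 95% interval for the mean of -0.33 to 0.47. The stretch-activated Kcnk2, known from smooth muscle, had -0.03 and 0.37, with an interval of -0.29 to 0.62, so neither interval reaches the 1.5-fold threshold on the low side, while that of Kcnk2 passes it on the high side.

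**Figure D3:**
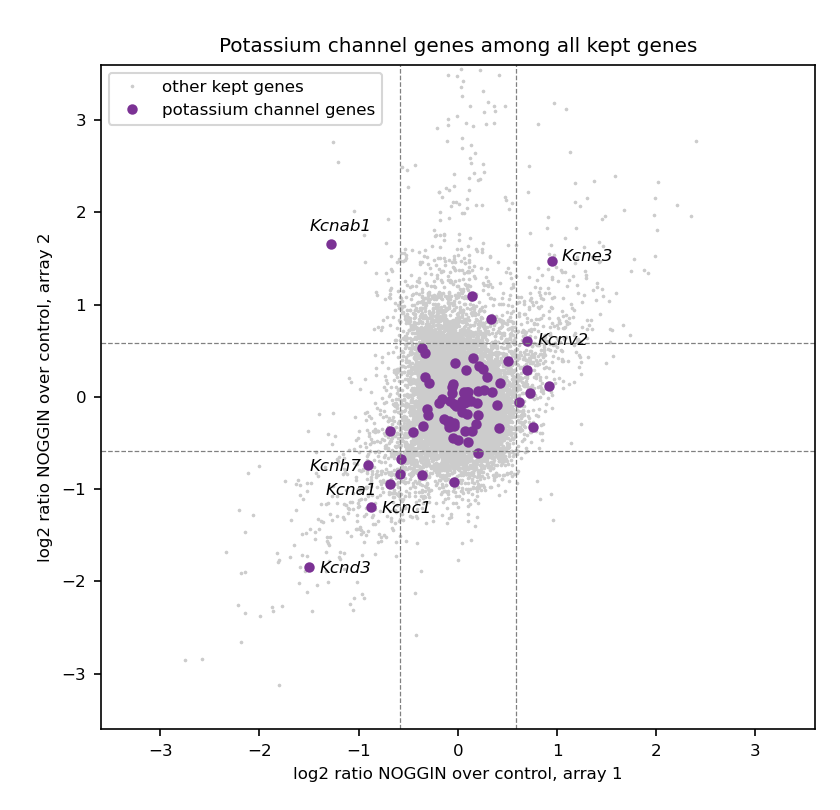
Log2 ratio of NOGGIN over control on array 1 (horizontal) against array 2 (vertical) for all kept genes (grey) and the 75 potassium channel genes (purple), with dashed lines at 1.5-fold; 8 genes lie outside the axes. Kcnd3, Kcnc1, Kcnh7 and Kcna1 lie in the lower left corner with 1.25% of all genes, Kcne3 and Kcnv2 in the upper right with 0.941%, and Kcnab1 in the upper left.

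Where a gene had more than 1 kept probe, its probes could be set against each other. Of 23 such members, 3 (Kcnd1, Kcnh8 and Kcnip3) had probes of different sign, all with means under 1.5-fold in size. The widest gap was that of Kcnt2, a sodium-activated channel gene, whose probes gave 0.17 and 0.70. Kcne4, another small auxiliary subunit, had probe means of 0.07 and 0.52. For both probes the arrays differed in sign, at -0.327 and 0.475 for the first and -0.431 and 1.47 for the second.

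Among 17 partners of potassium channels without a Kcn name, 14 were kept, 1 was lower (Lrrc55) and 0 were higher, with a median log2 ratio of -0.03. Of 40 calcium and chloride channels, pumps and gap junction genes of smooth muscle excitability, all were kept, 0 were higher or lower, and 1 (Slc8a1) passed in opposite directions. Their median was -0.06. Cacna1c, the pore of the L-type calcium channel that carries the ureteric action potential, had -0.23 and -0.76.

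Markers of the labelled tissue were present, and some differed between the channels alongside these values. All 12 smooth muscle and all 12 urothelial markers were kept. Of the smooth muscle markers, 4 were lower (Actg2, Cnn1, Synpo2 and Tagln), 1 was higher (Myocd) and 9 were below 0 on both arrays, with a median log2 ratio of -0.64. Their summed linear intensity was 150927 and 201392 with NOGGIN and 303189 and 271612 in control. Acta2, the brightest of these markers, weighs heavily in that sum. It was not past the rule, with log2 ratios of -1.395 on array 1 and -0.181 on array 2. Among urothelial markers 1 was higher and 0 were lower, and sums were 294623 and 265431 with NOGGIN against 225341 and 257763. Of 16 neuronal and glial markers 2 were higher (Syt1 and S100b) and 0 were lower, with sums of 95857 and 82579 against 76184 and 71475. Of 7 kept skeletal and cardiac muscle markers 3 were lower (Myh3, Myog and Tnnt2), with log2 ratios of -2.46, -1.53 and -1.63. On both arrays 4 of the 7 were below 0, and only Actc1 was above 0, at 0.82 and 0.56. The summed intensity was 25208 and 29507 against 18393 and 26115. That sum mostly reflects Actc1, the brightest of the list, with log2 intensities of 14.35 and 14.57 with NOGGIN and 13.53 and 14.01 in control. Fibroblast and ureteric mesenchyme markers had 1 higher (Tbx18) and 0 lower of 9 by the rule. However, 8 of the 9 were below 0 on both arrays, with a median log2 ratio of -0.30. Their summed intensity was 642539 and 673694 with NOGGIN against 896020 and 869495 in control. Endothelial, pericyte, macrophage and red blood cell markers had 0 past the rule. Except for 1 of 5 red blood cell and 1 of 8 skeletal and cardiac muscle markers, which were not kept, all markers of these lists were above background. The part of the other cell types in the potassium channel values was likewise not tested.

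Promoters were read for the genes past the fold rule, to show what lies at the start sites of the members with the largest differences. Sequences are from RefSeq, build GRCm38.p6, from 250 bases before to 50 after a transcription start, 5′ to 3′ on the gene's strand. Of the 75 kept genes 54 had entries, with 75 promoters, and of the 6 genes past the rule 4 had entries, with 5 promoters. The motifs searched on both strands were GGCGCC, a GC-rich element bound by BMP-activated SMAD proteins, CAGAC, a short SMAD element, GTCTAGAC, the SMAD palindrome, which contains no full CAGAC or GTCTG, and the CArG box of serum response factor. Capitals mark GGCGCC and CAGAC, or its reverse complement GTCTG. Shown are Kcnd3, with the largest difference, at chr3:105451640-105451939 (plus strand), Kcnc1, the next in size among the lower genes, at chr7:46396218-46396517 (plus strand), and the downstream of the 2 starts of Kcne3, the highest member, at chr7:100178433-100178732 (plus strand).
Kcnd3: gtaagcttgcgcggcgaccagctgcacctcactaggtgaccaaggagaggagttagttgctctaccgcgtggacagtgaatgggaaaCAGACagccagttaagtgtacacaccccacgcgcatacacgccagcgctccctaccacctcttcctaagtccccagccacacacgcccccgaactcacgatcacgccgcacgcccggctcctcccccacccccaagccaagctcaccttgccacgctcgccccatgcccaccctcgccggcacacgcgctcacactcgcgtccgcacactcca
Kcnc1: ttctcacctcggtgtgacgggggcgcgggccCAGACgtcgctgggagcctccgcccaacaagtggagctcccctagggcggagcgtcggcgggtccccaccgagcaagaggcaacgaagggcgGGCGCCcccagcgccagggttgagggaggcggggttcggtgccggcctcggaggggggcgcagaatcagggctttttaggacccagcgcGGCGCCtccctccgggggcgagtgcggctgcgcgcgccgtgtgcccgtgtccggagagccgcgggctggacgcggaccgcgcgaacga
Kcne3: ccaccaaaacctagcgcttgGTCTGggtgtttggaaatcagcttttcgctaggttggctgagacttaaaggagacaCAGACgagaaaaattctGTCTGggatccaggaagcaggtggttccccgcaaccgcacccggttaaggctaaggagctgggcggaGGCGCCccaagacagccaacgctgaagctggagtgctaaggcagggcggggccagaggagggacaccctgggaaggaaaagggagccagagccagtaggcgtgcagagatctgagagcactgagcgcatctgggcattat

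The Kcnd3 promoter held 1 CAGAC and no GGCGCC, that of Kcnc1 2 GGCGCC and 1 CAGAC, and that of Kcne3 1 GGCGCC and 3 CAGAC. The second Kcne3 start held 1 CAGAC, and the Kcnh7 promoter held neither. Across the 5 promoters GGCGCC was present in 2, against 16% of the promoters of kept potassium channel genes and 11.9% of all 32851 promoters. CAGAC was present in 4 of the 5, against 54.7% and 49.6%, and these promoters were also richer in G and C, with a median of 64% against 58.3% for kept members and 52.7% for all. GTCTAGAC and the CArG box were in none of the 5 nor in any promoter of a kept member, and in 0.213% and 1.63% of all promoters. A match describes the letters in the window and is no evidence of binding.

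The 6 genes past the fold rule kept their sign in every processing alternative in which they were measured. On single arrays the rule itself fixes the sign, so only the other settings, all on the same data, could have changed it. The ranges that follow include the single arrays, which set both ends for Kcnd3 and Kcne3. Over these alternatives Kcnd3 ran from -1.84 to -1.50, Kcnc1 from -1.30 to -0.87, Kcna1 from -1.10 to -0.68, Kcnh7 from -1.27 to -0.62, Kcnv2 from 0.60 to 1.19 and Kcne3 from 0.94 to 1.47. Limma's adjusted p of Kcnd3 ranged from 0.00548 to 0.628, below 0.05 in 3 settings. The authors' deposited table, whose sign runs the other way by the dye labels, gives signed folds of 2.62 and 3.69 for Kcnd3, 2.22 and 2.52 for Kcnc1, and -2.05 and -2.65 for Kcne3.

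**Figure D4:**
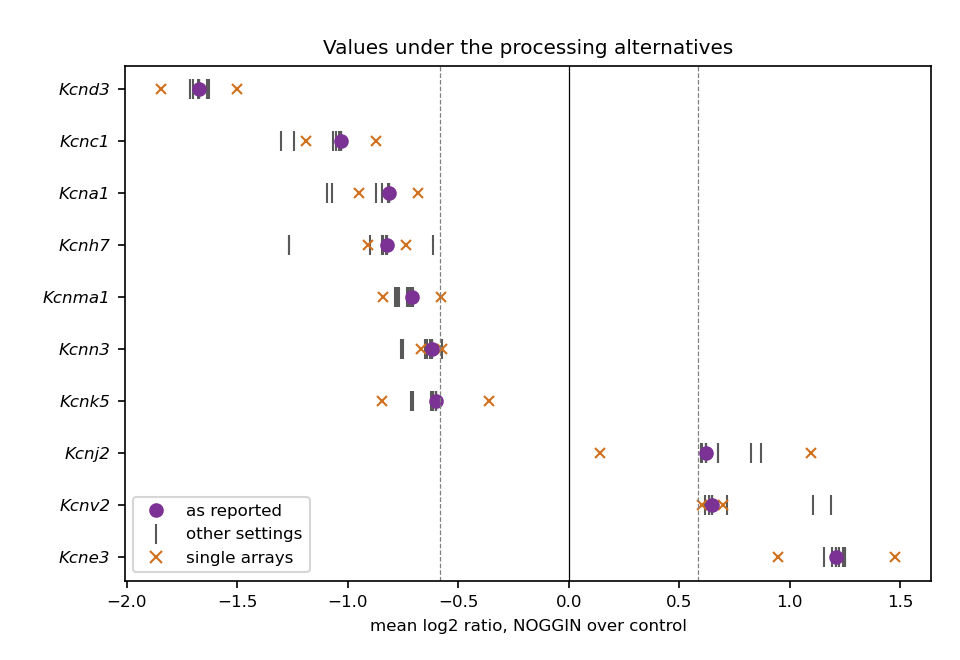
Mean log2 ratio of NOGGIN over control (horizontal axis) for 10 potassium channel genes as reported (purple), under each other processing setting (bars) and from each array alone (crosses), with dashed lines at 1.5-fold. Kcnd3 stays between -1.84 and -1.50, its single-array values, and for Kcnj2 the arrays alone give 0.14 and 1.10.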

How the data were processed

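Spot intensity values were deposited as scanner files, made with Agilent Feature Extraction (10.7.3.1, per the submitters' processing notes). The deposited log10 ratios are red over green, per the file headers, and were not used. The authors also deposited a score per probe, found to be a signed linear fold with no value between -1 and 1; it correlated at -0.891 and -0.943 with NOGGIN over control by the dye labels, and the sources used here do not name its normalization. Both arrays lie on 1 slide and were scanned once, so slide and scan were shared by every ratio. The litters behind the samples are not stated in the sources used here.

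Mean signals were background-corrected (normexp, offset 50) and normalized by loess within each array (limma 3.58.1, R 4.3.3). Control spots and flagged outlier spots (3.36% and 3.09%) were left out, no spot was saturated, and 4 spots per probe were averaged. Of 39429 probes 29645 passed the background filter, for 22316 genes or unnamed features, each represented by its brightest probe. Shares over all genes include the unnamed features. More probes were above background in green than in red on both arrays (76.9% against 65.3%, and 76.4% against 66.4%). Channel levels were set to a common scale by quantiles of mean intensity. limma's lmFit and eBayes used 1 coefficient, 1 residual and 4.34 prior degrees of freedom, with two-sided p-values adjusted by Benjamini-Hochberg over all 22316. An exact permutation test of 2 arrays cannot go below 0.5. Precision is limited by the number of arrays. The fit was tested on simulated ratios with independent errors on the arrays and no difference between dyes. That simulation therefore cannot show how a difference between dyes would affect the fit.

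Names were updated through RefSeq accessions (71.8% of probes matched). Members, lists and settings were chosen with earlier results of these data known. Named in full were members past the fold rule in the same or opposite directions, those with adjusted p under 0.1, and in each subfamily the 2 brightest and the largest difference; Abcc8, Abcc9, Cacna1c, Id1 and list members past the rule were added. One member is counted but not reported singly here. Further genes were picked with their values in view. Alternatives covered background correction, normalization, filter, flagged spots, averaging, probes, variance model, fold threshold, the authors' values and single arrays. Figures were drawn with matplotlib.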

Additional observations from a re-analysis of the deposited data

How the results depend on the processing

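The median log2 ratio of the potassium channel genes moved by less than the spread between arrays in every alternative tried. The count of all genes past an adjusted p of 0.05 (limma), 0 as reported, was 35 without background correction, 114 with median centring in place of loess, 97 with probes above background in both channels, 22 with outlier spots kept and 140 with limma's trend and robust options. Potassium channel genes past that threshold numbered 1, Kcnd3, under 3 of these settings (median centring, both channels, trend and robust). The higher members, 2 as reported, were 4 with processed signals and 3 with the authors' values. They were 1 when arrays were median centred, 1 when both channels had to exceed background, 1 with the median of spots and 0 at 2-fold. On single arrays they ranged from 5 to 7. The lower members, 4 as reported, were 1 at 2-fold, 6 with processed signals, 6 with the authors' values, 5 with the median of spots, 3 when median centred, 3 with the mean over probes and 6 to 9 on single arrays. Single arrays, of which none gives a test, reversed 5 of 48 values of named genes, and no other setting reversed any: Kcnmb4 ranged from -0.06 (without array 1) to 0.61, Kcns3 from -0.29 to 0.15 (without array 1), Kcna4 from -0.36 (without array 2) to 0.53, Kcnk2 from -0.027 (without array 2) to 0.37 and Kcnab1 from -1.28 (without array 2) to 1.66. For these 5 genes the arrays have opposite signs, so 1 array must oppose the mean. What made the arrays differ was not tested. Genes past the fold rule could not reverse on a single array, since the rule asks for the same sign on each. Both channels above background left out Kcnv2. Dim members limit what can be seen, since 10 were above background only in green. The fit uses ratios within arrays and so is already paired.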

Other observations

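Further transcripts of potassium channel loci lie outside the family's naming rule. Kcnq1ot1, the long noncoding RNA of the imprinted Kcnq1 locus, had log2 ratios of -0.11 and -0.73, and Kcnrg, which encodes a regulator of voltage-gated channels, had 0.17 and 0.16, with none past the fold rule.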
